A study of Mus musculus with 8 samples.

Results

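This account covers 36 mouse genes of nucleotide synthesis and one-carbon metabolism, taken by symbol from a list of enzymes and matched to 36 of the 47937 gene rows in the deposited count tables. The RNA was from A-MuLV transformed pro-B cells, a line of B-cell precursors kept growing by the Abelson leukaemia virus. In all libraries endogenous EBF1, a transcription factor that commits cells to the B lineage, had been replaced by an introduced EBF1 with a dTAG degron (genotype EBF1-dTAG_N), and the labels do not say how many clones were used. The compound dTAG-13 directs tagged proteins to degradation. Treatment lasted 6 h, with 0.5 µM dTAG-13 in 4 libraries and with its solvent DMSO in the other 4, described as biological replicates. The titles give the DMSO libraries as 0 h. Effects of the compound itself and of EBF1 loss cannot be told apart, since cells without the tag were not analysed here.

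Purine nucleotides are assembled step by step on phosphoribosyl pyrophosphate (PRPP), whereas pyrimidines are made as a ring that is then joined to PRPP. Folate carries single-carbon units, drawn largely from serine, that are built into the purine ring and into thymidylate. Dividing lymphoid precursors need these products for RNA and DNA, and MYC is known to promote the expression of many of the enzymes.

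Exon reads and whole-gene reads were counted separately, and their difference is called intronic here, since it comes mostly from unspliced RNA. Each library held 28982316 to 38999496 exonic reads, and intronic reads made up 20.4% to 27.3% of whole-gene reads. Of the exonic reads, 25.7% to 29.3% lay in Gm26917 and Gm42418, gene models that overlap ribosomal RNA. They count toward library size in the levels below. The labelled cell type was checked with 10 pro-B markers, of which Pax5, Cd79a and Vpreb1 were abundant, while Dntt was near 0 at 1.24 CPM (CPM being read counts scaled to library size) in DMSO. The markers summed to between 2545 and 2613 CPM in DMSO and between 1668 and 1737 CPM in dTAG-13. By the exonic test given below 9 of the 10 were lower after treatment, as were 14.0% of all genes tested. Of markers of other cells, 5 of 6 T-cell, 5 of 6 erythroid, 3 of 5 stromal, 2 of 7 myeloid and 2 of 5 NK-cell genes had no exonic read in any library. The T-cell, erythroid, stromal and myeloid exonic sums stayed at or below 1.12 CPM in every library. The NK-cell sum ran from 7.88 to 12.5 CPM in DMSO and from 20.9 to 22.3 CPM in dTAG-13, nearly all of it Klrd1, with Ncr1 and Gzma at 0. Library dTAG-13 replicate 1 lay nearest to the controls for several genes below. Without it 24 of the genes described here were lower and 3 higher in exonic counts, and 16 lower and 1 higher in intronic counts.

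Most enzymes of nucleotide synthesis were lower 6 h after dTAG-13. Of 35 members with enough reads to test, 23 fell in exonic counts (65.7%) and 3 rose (8.57%), against 14.0% lower and 14.3% higher among all 12889 genes tested (edgeR quasi-likelihood test, adjusted p below 0.05, 28.3% in either direction). The median log2 change of the tested members was -0.19, beside -0.0030 over all genes. Shares of calls depend on precision as well as size. Most members had a standard error below the median of 0.071 over all genes, so small changes were called more readily in them. Cad was called lower, while of 3203 genes with a more negative change 1644 were. The falls were modest. The largest was 2.31-fold for Impdh1, and 7 of the 23 reached 1.25-fold. All 4 treated libraries lay below all 4 controls for 22 members and above them for 3, against 13.5% and 14.2% of all genes. Aldh1l2, a mitochondrial folate enzyme, had at most 6 exonic reads in any library and was not tested. In bulk RNA, fewer cells of one kind and less RNA per cell cannot be told apart, and the values are shares of each library.

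**Figure D1:**
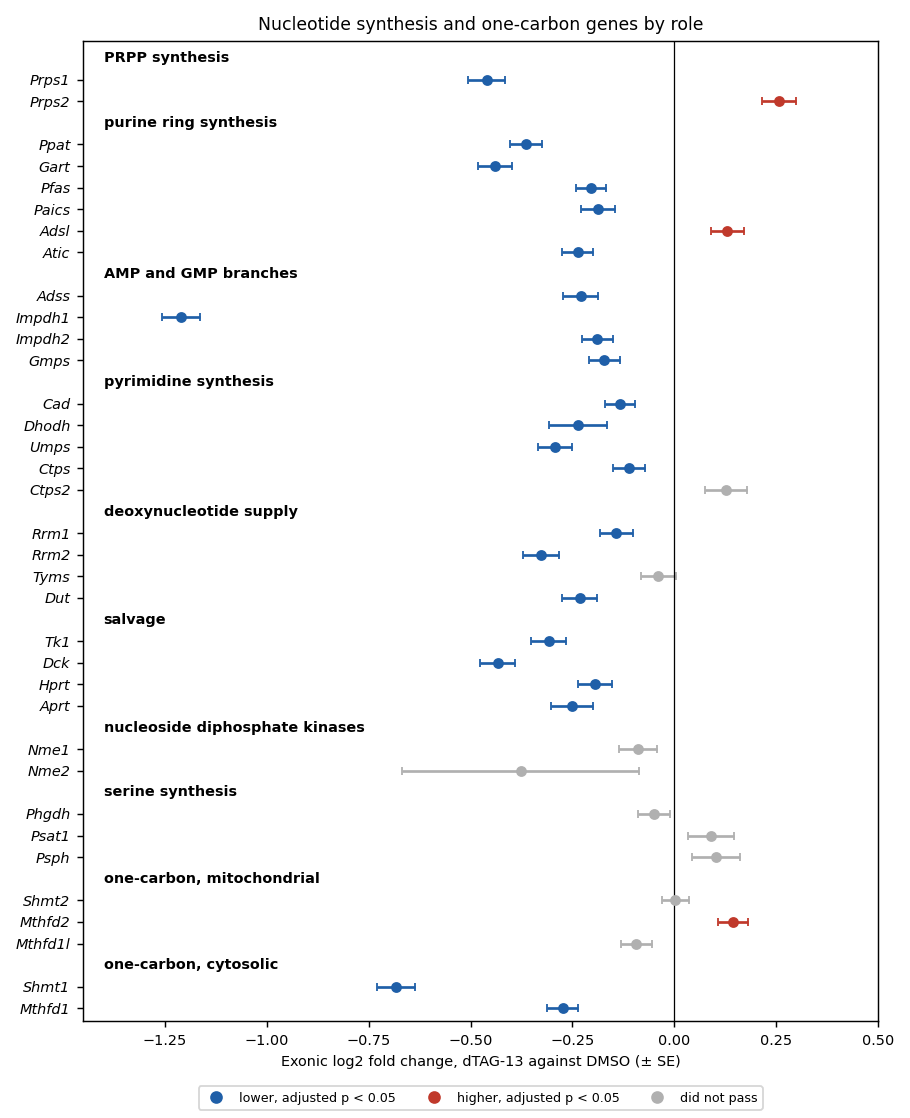
Exonic log2 fold change (dTAG-13 against DMSO, x axis) of the 35 tested members grouped by role, with the standard error as bars, 4 libraries per group. Blue points were lower, red points higher and grey points did not pass; Impdh1 lies farthest left at -1.21, and all points of serine synthesis are grey.

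The promoter sequences of members are shown because most members fell in exonic counts. Of 35 tested, 23 fell, 3 rose and 9 did not pass. Whether members share a regulator was not tested. MYC is known to bind the E-box CACGTG, and EBF1 the letters TCCC and GGGA parted by any 2 bases. RefSeq promoter windows on GRCm38.p6, from 250 bases before to 50 bases after each annotated start, were at hand for 33 members in 40 windows. Both strands were searched for these letters, for TGATGNAA (an ATF4 element), and for TTTGGCGC and TTTCCCGC (E2F). No match overlapped another. CACGTG stood in windows of 5 of 33 members (15.2%) and of 8.1% of all 27025 genes in the table. The EBF1 letters stood in 1 member, Ctps2 (3.0%, all genes 1.1%), TGATGNAA in 1, Prps1 (3.0%, all genes 4.5%), TTTCCCGC in 2, Ppat and Prps2 (6.1%, all genes 1.2%), and TTTGGCGC in 0 (all genes 0.6%). A match is a run of letters and was not tested for binding.

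The 5 members with an E-box are shown first, capitals marking CACGTG. Of these, Atic, Paics and Impdh2 were lower after dTAG-13, while Tyms and Nme1 did not pass the test.
Atic, chr1:71556906-71557205, plus strand: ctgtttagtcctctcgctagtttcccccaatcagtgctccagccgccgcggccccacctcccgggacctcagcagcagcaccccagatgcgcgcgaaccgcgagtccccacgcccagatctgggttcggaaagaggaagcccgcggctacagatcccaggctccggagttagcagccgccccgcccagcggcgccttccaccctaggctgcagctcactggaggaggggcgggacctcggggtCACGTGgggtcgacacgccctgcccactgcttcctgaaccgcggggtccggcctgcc
Paics, chr5:76951052-76951351, plus strand: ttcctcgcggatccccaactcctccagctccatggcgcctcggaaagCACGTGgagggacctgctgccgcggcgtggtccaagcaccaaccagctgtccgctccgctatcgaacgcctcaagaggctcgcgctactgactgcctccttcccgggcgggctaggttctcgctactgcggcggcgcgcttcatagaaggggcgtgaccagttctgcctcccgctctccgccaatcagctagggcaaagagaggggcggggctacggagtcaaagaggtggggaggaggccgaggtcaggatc
Impdh2, chr9:108560186-108560485, plus strand: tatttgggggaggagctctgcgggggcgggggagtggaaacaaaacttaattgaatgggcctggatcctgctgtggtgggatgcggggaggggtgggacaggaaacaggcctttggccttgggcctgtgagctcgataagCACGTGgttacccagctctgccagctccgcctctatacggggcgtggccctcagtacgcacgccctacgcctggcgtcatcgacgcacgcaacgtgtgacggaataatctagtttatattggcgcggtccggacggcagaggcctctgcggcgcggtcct
Tyms, chr5:30073576-30073875, minus strand: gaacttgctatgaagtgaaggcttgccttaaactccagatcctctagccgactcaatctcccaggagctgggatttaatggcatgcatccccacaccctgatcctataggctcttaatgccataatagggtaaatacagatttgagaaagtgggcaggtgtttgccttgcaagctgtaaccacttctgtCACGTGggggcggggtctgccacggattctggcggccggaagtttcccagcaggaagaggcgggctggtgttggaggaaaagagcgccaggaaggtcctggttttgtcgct
Nme1, chr11:93968223-93968522, minus strand: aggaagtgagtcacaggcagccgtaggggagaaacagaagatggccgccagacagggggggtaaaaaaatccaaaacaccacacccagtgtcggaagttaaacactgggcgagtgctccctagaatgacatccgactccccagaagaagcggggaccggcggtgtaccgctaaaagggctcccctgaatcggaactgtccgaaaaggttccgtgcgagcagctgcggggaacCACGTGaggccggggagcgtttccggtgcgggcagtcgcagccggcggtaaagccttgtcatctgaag
Ppat is shown as the divergent neighbour of Paics, with capitals at its matches to the E2F letters read on the opposite strand, and Ctps2 as the single member with the EBF1 letters, in 1 of its 3 windows.
Ppat, chr5:76951529-76951828, minus strand: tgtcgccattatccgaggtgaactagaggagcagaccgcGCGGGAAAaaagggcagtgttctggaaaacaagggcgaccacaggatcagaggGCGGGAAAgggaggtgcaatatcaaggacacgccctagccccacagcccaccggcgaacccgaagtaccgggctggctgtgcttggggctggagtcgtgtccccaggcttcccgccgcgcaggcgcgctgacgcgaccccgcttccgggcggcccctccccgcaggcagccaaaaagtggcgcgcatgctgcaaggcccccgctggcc
Ctps2, chrX:162901921-162902220, plus strand: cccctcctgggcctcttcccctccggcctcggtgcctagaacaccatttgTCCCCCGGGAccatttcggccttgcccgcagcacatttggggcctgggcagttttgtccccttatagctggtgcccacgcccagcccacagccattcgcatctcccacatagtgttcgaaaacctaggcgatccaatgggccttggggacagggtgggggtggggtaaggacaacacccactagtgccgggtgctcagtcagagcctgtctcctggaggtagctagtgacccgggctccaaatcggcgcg
The E-box began 7 bases before the start of Atic, 203 before that of Paics, 110 before that of Impdh2, 61 before that of Tyms and 18 before that of Nme1 in the window shown. The windows of Impdh1 and Shmt1, the members that fell most, held none of these motifs.

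PRPP synthesis is shared by purine, pyrimidine and salvage routes, and its 2 enzymes moved in opposite directions. Prps1 (ENSMUSG00000031432.3, chromosome X, 140456613 to 140476140, plus strand, GRCm38) had levels of 60.8, 62.9, 63.0 and 63.0 exonic CPM under DMSO and 48.4, 45.1, 45.4 and 42.5 CPM under dTAG-13. This was a 1.38-fold fall with no overlap of the groups (log2 change -0.46 ± 0.045 SE, edgeR adjusted p = 4.8e-09). Its paralog Prps2 (chromosome X, 167346322 to 167382749, minus strand) measured 109, 101, 108 and 113 CPM with DMSO and 136, 127, 127 and 123 CPM with dTAG-13. Every treated library was higher than every control (log2 change 0.26 ± 0.042 SE, edgeR adjusted p = 2.3e-05). Per kilobase of exon, Prps1 stood at 31.3 and Prps2 at 27.8 CPM in DMSO, and at 22.8 and 33.2 CPM in dTAG-13. The exon bases merge all annotated transcripts, 1993 for Prps1 and 3873 for Prps2, so different genes compare only roughly on this scale. In CPM without this division, Prps2 was higher than Prps1 in every library.

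In purine ring synthesis 5 of 6 enzymes fell and 1 rose, beside 14.0% lower and 14.3% higher among all genes tested. Ppat encodes the amidotransferase of the first committed step. It measured 133, 129, 124 and 124 CPM with DMSO and 104, 96.0, 99.2 and 96.9 CPM with dTAG-13, a 1.29-fold fall without overlap (log2 change -0.36 ± 0.039 SE, edgeR adjusted p = 3.1e-08). Gart (chromosome 16, 91621186 to 91646952, minus strand), which encodes a protein with several activities of the route, measured 187, 179, 178 and 178 CPM with DMSO and 142, 125, 136 and 128 CPM with dTAG-13. It showed the largest fall of the ring enzymes (1.36-fold, log2 change -0.44 ± 0.041 SE, edgeR adjusted p = 2.3e-09), and the controls lay close together apart from replicate 1. Atic, which closes the ring with a folate-borne carbon, measured 253, 247, 239 and 248 CPM with DMSO and 218, 207, 213 and 199 CPM with dTAG-13 (log2 change -0.24 ± 0.037 SE, edgeR adjusted p = 1.4e-05). Its groups did not overlap either.

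Pfas, the amidotransferase of a middle step, and Paics, which joins later activities in a single protein, fell by 0.21 and 0.19 on the log2 scale (edgeR adjusted p = 7.4e-05 and 0.00106). For Paics library dTAG-13 replicate 1, at 243.6 CPM, overlapped the controls, of which the lowest was 242.4 CPM. Adsl, which acts both in the ring and in the AMP branch, measured 80.8, 83.1, 80.0 and 78.6 CPM with DMSO and 89.7, 84.2, 92.6 and 86.3 CPM with dTAG-13. It rose slightly (log2 change 0.13 ± 0.04 SE, edgeR adjusted p = 0.0156), a call lost when DMSO replicate 4 was left out (edgeR adjusted p = 0.0596) and when dTAG-13 replicate 3 was (edgeR adjusted p = 0.071).

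Ppat and Paics lie head to head on chromosome 5, with annotated starts 271 bases apart (Ppat 76913249 to 76951578, minus strand; Paics 76951307 to 76967509, plus strand, GRCm38). Their exons share 272 bases on opposite strands. Both fell, and Ppat fell more. The log2 ratio of Paics to Ppat was 1.00 ± 0.033 with DMSO and 1.17 ± 0.0405 with dTAG-13 (SD, n = 4 each, two-sided exact permutation p = 0.0286). This pair was chosen after the values had been seen, so the p-value only restates that the ratios of the groups were separate.

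The branches from IMP to AMP and GMP held the largest change. Impdh1 (ENSMUSG00000003500.13, chromosome 6, 29200434 to 29216364, minus strand, GRCm38) encodes an isoform of IMP dehydrogenase, the rate-limiting enzyme of guanine nucleotide synthesis. It measured 60.0, 65.9, 63.2 and 61.9 CPM with DMSO and 28.0, 26.7, 27.2 and 26.6 CPM with dTAG-13. The treated values were tightly grouped at less than every control (log2 change -1.21 ± 0.046 SE, edgeR adjusted p = 2.6e-17). Of all genes called lower, 133 of 1808 fell more than Impdh1. The other isoform, Impdh2 (chromosome 9, 108560286 to 108565584, plus strand), measured 244, 247, 241 and 238 CPM with DMSO and 218, 215, 220.2 and 198 CPM with dTAG-13. Its 1.14-fold fall was small but without overlap (log2 change -0.19 ± 0.038 SE, edgeR adjusted p = 3.2e-04). Per kilobase of exon Impdh2 stood at 78.9 and Impdh1 at 19.0 CPM in DMSO, and at 69.2 and 8.23 CPM in dTAG-13, so Impdh2 was the more abundant isoform in both groups. Adss, the first enzyme toward AMP, measured 105, 106, 104 and 109 CPM with DMSO and 96.3, 85.9, 94.6 and 84.6 CPM with dTAG-13 (log2 change -0.23 ± 0.043 SE, edgeR adjusted p = 1.4e-04). Gmps, which completes GMP, changed by -0.17 (edgeR adjusted p = 0.00111). All 4 genes of these branches were lower with separate groups. Among all genes tested 14.0% were called lower, and 13.5% had separate groups in that direction.

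**Figure D2:**
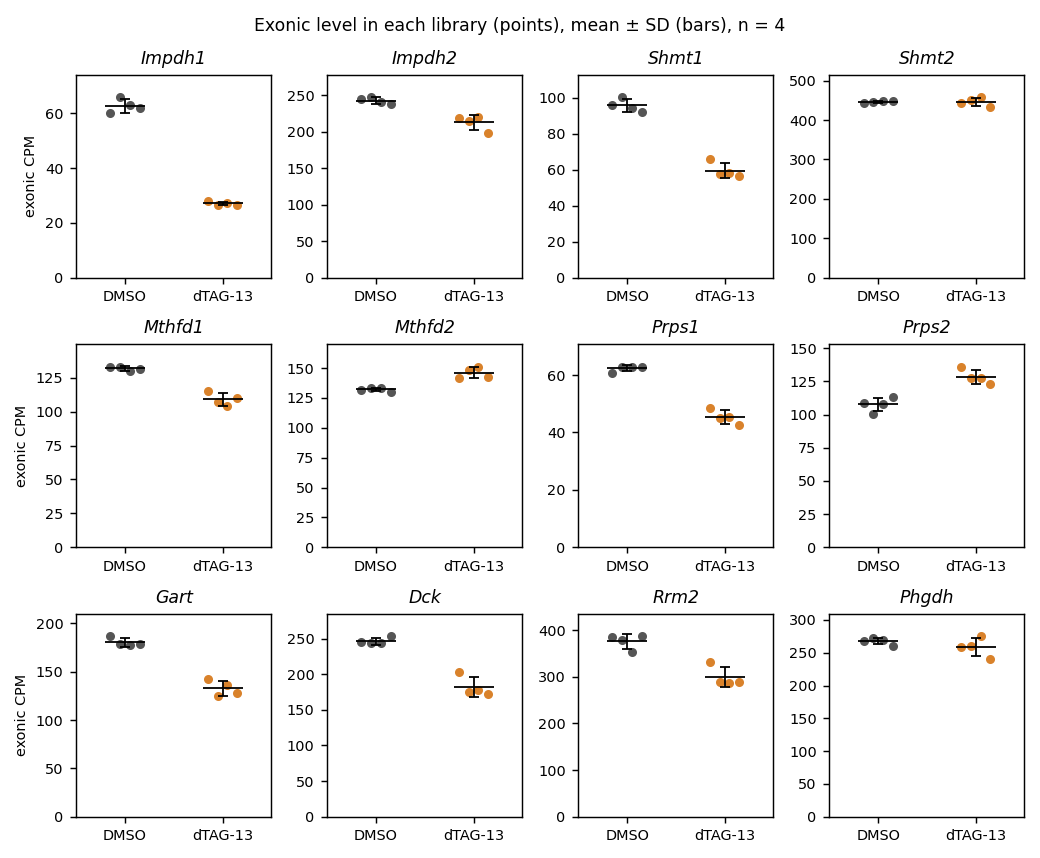
Exonic CPM (y axis, from 0) of 12 members in each of the 4 DMSO and 4 dTAG-13 libraries (points), with the mean and SD as bars. Impdh1 drops from 62.7 to 27.1 CPM on average, while Shmt2 and Phgdh keep overlapping groups.

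In pyrimidine synthesis 4 of 5 enzymes fell, beside 14.0% of all genes tested. Umps, which makes UMP, measured 94.1, 88.7, 84.6 and 86.6 CPM with DMSO and 74.1, 71.5, 74.4 and 68.9 CPM with dTAG-13, without overlap (log2 change -0.29 ± 0.042 SE, edgeR adjusted p = 3.7e-06). Cad, the multifunctional enzyme that begins the route and a long-known MYC target, measured 345, 328, 349 and 342 CPM with DMSO and 319, 317, 313 and 296 CPM with dTAG-13. The groups were separate but the change was small (log2 change -0.13 ± 0.036 SE, edgeR adjusted p = 0.00581). Dhodh, a mitochondrial enzyme that passes electrons to the respiratory chain, was low, at 20.8, 18.1, 19.9 and 20.5 CPM with DMSO and 16.4, 17.8, 17.4 and 15.8 CPM with dTAG-13 (log2 change -0.24 ± 0.071 SE, edgeR adjusted p = 0.0124).

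The CTP synthases diverged in sign. Ctps changed by -0.11 ± 0.04 SE (edgeR adjusted p = 0.0349) with separate groups, but this call was lost without low-count filtering (adjusted p = 0.0748) or when DMSO replicate 1, DMSO replicate 2, dTAG-13 replicate 2 or dTAG-13 replicate 4 was left out (edgeR adjusted p = 0.1, 0.077, 0.118 and 0.0594). Ctps2, the member with the EBF1 letters, had a log2 difference of 0.13 ± 0.051 SE and did not pass (edgeR adjusted p = 0.0654), except without DMSO replicate 3 (edgeR adjusted p = 0.0339).

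Of the enzymes that supply deoxynucleotides, 3 of 4 fell, beside 14.0% of all genes tested. Rrm2, the small subunit of ribonucleotide reductase, whose level follows the cell cycle, measured 386, 379, 352 and 387 CPM with DMSO and 332, 289.7, 287 and 289.7 CPM with dTAG-13. All treated libraries were lower than all controls, replicate 1 by the least (log2 change -0.33 ± 0.044 SE, edgeR adjusted p = 1.2e-06). Dut, which removes dUTP, measured 141, 148, 139 and 139 CPM with DMSO and 131, 117, 123 and 112 CPM with dTAG-13 (log2 change -0.23 ± 0.043 SE, edgeR adjusted p = 1.3e-04). Rrm1, the large subunit, measured 350.4, 339, 329.8 and 343 CPM with DMSO and 336, 297, 310.3 and 291 CPM with dTAG-13. Its groups overlapped through dTAG-13 replicate 1, and the fall was small (log2 change -0.14 ± 0.041 SE, edgeR adjusted p = 0.00874), narrowly missing the test without dTAG-13 replicate 2 (edgeR adjusted p = 0.051). Tyms, thymidylate synthase, had a log2 difference of -0.039 ± 0.043 SE (edgeR adjusted p = 0.569). Its promoter window is the one above with an E-box 61 bases before the start.

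Salvage enzymes, which recycle bases and nucleosides, all fell, 4 of 4 with separate groups. Of all genes tested 14.0% were called lower, and 13.5% had separate groups in that direction. Dck (chromosome 5, 88764996 to 88783281, plus strand), deoxycytidine kinase, measured 245, 243, 243 and 253 CPM with DMSO and 204, 175, 178 and 173 CPM with dTAG-13, a 1.35-fold fall (log2 change -0.43 ± 0.044 SE, edgeR adjusted p = 9.3e-09). Library dTAG-13 replicate 1 was again the highest of the treated ones. Tk1, the thymidine kinase of S phase, measured 71.4, 66.2, 67.0 and 70.9 CPM with DMSO and 58.8, 55.3, 54.9 and 53.5 CPM with dTAG-13 (log2 change -0.31 ± 0.043 SE, edgeR adjusted p = 2.7e-06). Aprt, which salvages adenine, measured 53.9, 56.2, 48.7 and 51.9 CPM with DMSO and 45.4, 42.9, 47.3 and 41.2 CPM with dTAG-13 (log2 change -0.25 ± 0.051 SE, edgeR adjusted p = 3.8e-04). Hprt, which salvages hypoxanthine and guanine and often serves as a reference gene, fell 1.14-fold (log2 change -0.19 ± 0.042 SE, edgeR adjusted p = 7.0e-04).

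Genes of DNA replication moved in the same samples. Of 20 genes of the S phase, among them the Mcm helicase genes and Pcna, 17 were lower and 0 higher in exonic counts. Among all genes tested 14.0% were lower and 14.3% higher. The median log2 change of the 20 genes was -0.23, beside -0.0030 over all genes. The summed level of the S phase genes was 3110, 2969, 2857 and 3021 CPM in DMSO and 2833, 2471, 2493 and 2403 CPM in dTAG-13. Library dTAG-13 replicate 1 was the highest treated one here too. The part of the cell cycle in the changes of Rrm2, Tk1, Dut and Dck was not tested.

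The nucleoside diphosphate kinases Nme1 and Nme2, which charge the other nucleotides from ATP, gave no call (0 of 2 by edgeR, 0 at an unadjusted p below 0.05, and 0 by DESeq2), but their counts are incomplete. Both overlap Gm20390, a gene model on the same strand that spans them and shares 48.9% of the exon bases of Nme2 and 12.5% of those of Nme1. Nme2 had only 0.726, 1.04, 1.17 and 1.11 exonic CPM in DMSO and 0.761, 0.842, 0.753 and 0.772 CPM in dTAG-13. The whole-gene count of Gm20390 equalled the sum of the whole-gene counts of Nme1 and Nme2 to within 8 reads in every library, while its exonic count was at most 5 reads. Reads in shared exons were therefore counted for each gene in the whole-gene table and left out of the exon table. The intronic difference of both genes thus holds exonic reads and is not used. In all, 14 members share exon bases with another annotated gene, Gart for instance 19.7% with the antisense gene Gm15964. Their exonic and intronic levels are uncertain, and the share of bases does not give the share of reads affected. Nme2, at 48.9% of bases, had 21 exonic reads beside 4634 whole-gene reads in DMSO replicate 1. In whole-gene counts Nme2 measured 122, 121, 116 and 114 CPM in DMSO and 119, 115, 119.7 and 103 CPM in dTAG-13, with overlapping groups. Nme1 exonic reads, at 62.4, 63.1, 63.7 and 59.7 CPM with DMSO and 59.1, 56.3, 63.5 and 54.7 CPM with dTAG-13, missed the test (log2 change -0.09 ± 0.047 SE, edgeR adjusted p = 0.163), except without dTAG-13 replicate 3 (edgeR adjusted p = 0.0292).

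The 3 enzymes of serine synthesis gave no call. In exonic counts 0 passed by edgeR, with 0 at an unadjusted p below 0.05, and 0 by DESeq2. Phgdh, which draws the route off glycolysis, measured 268, 272, 269 and 261 CPM with DMSO and 258, 259, 275 and 241 CPM with dTAG-13 (log2 difference -0.049 ± 0.039 SE, edgeR adjusted p = 0.393). Psat1, the aminotransferase, measured 34.3, 36.5, 29.9 and 34.0 CPM with DMSO and 36.8, 34.6, 35.7 and 35.9 CPM with dTAG-13. Psph, which releases free serine, measured 23.9, 25.4, 24.5 and 26.9 CPM with DMSO and 28.0, 27.2, 27.2 and 25.8 CPM with dTAG-13. The exonic groups overlapped for all 3 genes (log2 differences of 0.089 and 0.10 for Psat1 and Psph, edgeR adjusted p = 0.271 and 0.22). A miss does not show that these genes were unaffected, since their exonic standard errors ran from 0.039 to 0.058 on the log2 scale. In introns 0 of 3 passed. The intronic groups of Phgdh were separate (log2 difference -0.13, edgeR adjusted p = 0.135), as were those of 10.0% of all genes in the lower direction.

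One-carbon units are handled by parallel enzymes in the cytosol and in mitochondria. Both cytosolic enzymes fell, as did 14.0% of all genes tested. Shmt1 (ENSMUSG00000020534.14, chromosome 11, 60788104 to 60811718, minus strand, GRCm38), the cytosolic serine hydroxymethyltransferase that loads folate from serine, measured 96.0, 100.3, 94.3 and 92.1 CPM with DMSO and 66.0, 57.6, 58.0 and 56.5 CPM with dTAG-13. This 1.61-fold fall was the next largest after Impdh1 (log2 change -0.68 ± 0.047 SE, edgeR adjusted p = 4.7e-12). Mthfd1, which interconverts cytosolic folates, measured 133, 133, 130.0 and 132 CPM with DMSO and 115, 107, 104 and 110.1 CPM with dTAG-13, without overlap (log2 change -0.27 ± 0.038 SE, edgeR adjusted p = 2.4e-06).

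Of the 3 mitochondrial enzymes tested, 1 rose, beside 14.3% of all genes tested, and the other 2 did not pass. Shmt2, the mitochondrial counterpart of Shmt1, measured 444, 445, 448 and 448 CPM with DMSO and 444, 451, 458 and 434 CPM with dTAG-13. The groups overlapped, with a log2 difference of 0.0028 ± 0.033 SE (edgeR adjusted p = 0.967). Mthfd2, the mitochondrial dehydrogenase and cyclohydrolase, measured 132, 134, 133 and 130.4 CPM with DMSO and 142, 149, 151 and 143 CPM with dTAG-13, and rose by a small amount in all treated libraries (log2 change 0.14 ± 0.037 SE, edgeR adjusted p = 0.00323). Mthfd1l, which releases formate from mitochondria, measured 155, 157, 158 and 156 CPM with DMSO and 153, 147, 149 and 137 CPM with dTAG-13. Its groups were separate, yet the change did not pass by edgeR (log2 change -0.094 ± 0.038 SE, adjusted p = 0.0718) and passed by DESeq2 (adjusted p = 0.0486) and, by edgeR, without dTAG-13 replicate 1 (adjusted p = 0.0276).

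Whether paired members changed differently was examined on their ratio within each library, which does not depend on scaling between libraries. The 7 pairs were chosen after the values had been seen. In every pair the ratios of the 2 groups did not overlap. Each pair thus gave a two-sided exact permutation p of 0.0286, the smallest that 4 against 4 libraries allow. The p stayed 0.0286 after Benjamini-Hochberg adjustment over the 7 pairs, which does not correct for how they were picked. These p-values therefore only restate the separation. The log2 ratio of Impdh1 to Impdh2 went from -1.95 ± 0.052 with DMSO to -2.97 ± 0.057 with dTAG-13 (SD, n = 4 each). That of Prps1 to Prps2 went from -0.78 ± 0.079 to -1.50 ± 0.023. For Shmt1 to Shmt2 it went from -2.22 ± 0.056 to -2.91 ± 0.11, and for Mthfd1 to Mthfd2 from -0.0026 ± 0.024 to -0.42 ± 0.11 (SD, n = 4 each). In both of the latter pairs the cytosolic enzyme fell relative to the mitochondrial enzyme it was paired with. Mthfd1 was not paired with Mthfd1l, whose exonic log2 change was -0.094, beside -0.27 for Mthfd1. Smaller shifts were measured for Ctps to Ctps2 (a difference of -0.24) and Rrm1 to Rrm2 (0.19).

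**Figure D3:**
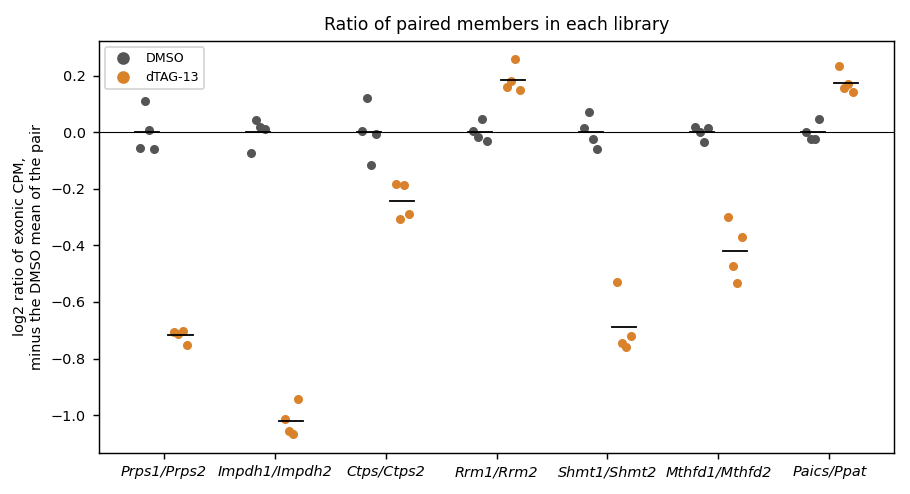
Log2 ratio of exonic CPM of paired members in each library (points), relative to the mean DMSO ratio of the pair, with group means as lines. In all 7 pairs the dTAG-13 points lie apart from the DMSO points, by 1.02 for Impdh1/Impdh2 and 0.18 for Paics/Ppat.

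Levels per kilobase of exon spanned a wide range in DMSO. Their order depends in part on annotation, since the exon bases merge all annotated transcripts, 11012 bases for Rrm1 for instance. Shmt2 stood highest at 143 ± 0.616 CPM per kilobase, followed by Rrm2 at 136 ± 5.88, Phgdh at 108 ± 2.02 and Hprt at 90.1 ± 2.70 (SD, n = 4 each). Paics at 81.0 ± 2.93 and Impdh2 at 78.9 ± 1.36 did not differ beyond their spread. At the low end, apart from Nme2, were Dhodh at 3.14 ± 0.190, Psph at 5.82 ± 0.299, Ctps2 at 7.50 ± 0.420 and Psat1 at 7.91 ± 0.641, of which Ctps2 and Psat1 overlapped. After dTAG-13 Rrm2 had moved to 108 ± 7.88 CPM per kilobase, within the spread of Phgdh at 104 ± 5.60.

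Intronic reads moved in the same direction for most members. Of 33 tested, Nme1 and Nme2 being left out, 16 fell (48.5%) and 1 rose, against 8.50% and 8.26% of the 11229 genes tested in introns. All 16 were among the 23 that fell in exonic counts, and 22 of the 23 had a negative intronic change. Of these 16, Ppat, Gart, Umps, Tk1, Shmt1 and Mthfd1 share exon bases with another gene, from 0.8% (Mthfd1) to 19.7% (Gart). Shmt2, the member that rose, shares 1.0%. Their intronic counts may therefore hold exonic reads, and how many was not tested. The intronic groups did not overlap for 15 members in the lower direction, and for 1 in the higher, against 10.0% and 9.51% of all genes. The median intronic log2 change of these 33 members was -0.24, beside -0.0027 over all genes. Most of these members again had a standard error below the median over all genes, 0.11 in introns, which favours calls.

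Impdh1 intronic reads measured 25.5, 38.6, 31.6 and 27.3 CPM with DMSO and 11.5, 9.43, 13.4 and 11.3 CPM with dTAG-13, a 2.70-fold fall (edgeR adjusted p = 5.2e-08). Shmt1 fell 1.64-fold in introns, from 83.6, 96.3, 93.7 and 90.7 CPM to 52.8, 51.9, 54.0 and 63.9 CPM (edgeR adjusted p = 2.9e-07). Intronic Dck fell 1.63-fold, from 98.6, 106, 103 and 96.9 CPM to 64.9, 55.7, 60.3 and 67.4 CPM (edgeR adjusted p = 9.3e-08). In these 3 genes every treated library was lower than every control. Prps1 (-0.54), Gart (-0.46), Ppat (-0.43), Tk1 (-0.39), Umps (-0.38), Dut (-0.31), Mthfd1 (-0.29), Adss (-0.28), Hprt (-0.27) and Ctps (-0.25) also passed the test as intronic log2 changes (edgeR adjusted p between 3.8e-05 and 0.0091).

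The intronic falls of Rrm2 (-0.36), Gmps (-0.24) and Rrm1 (-0.22) on the log2 scale passed less firmly, with edgeR adjusted p = 0.0176, 0.0258 and 0.0276. Rrm2 missed the test when replicate 2 or 4 of DMSO or replicate 3 or 4 of dTAG-13 was left out (edgeR adjusted p between 0.0538 and 0.0727). For Gmps this happened on leaving out replicate 2 or 4 of DMSO or replicate 1, 2 or 3 of dTAG-13 (edgeR adjusted p between 0.0558 and 0.143). For Rrm1 it happened on leaving out replicate 1 or 4 of DMSO or replicate 2, 3 or 4 of dTAG-13 (edgeR adjusted p between 0.0581 and 0.131). Intronic Paics did not pass (log2 change -0.26, edgeR adjusted p = 0.072), but did so without dTAG-13 replicate 1 (edgeR adjusted p = 0.0162) and with the replicate number as a block (edgeR adjusted p = 0.0367). Intronic Prps2 had a log2 difference of 0.16 and did not pass (edgeR adjusted p = 0.283).

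Shmt2 was the single member whose intronic reads rose. They measured 50.4, 62.5, 60.7 and 62.6 CPM with DMSO and 67.1, 84.0, 70.6 and 72.4 CPM with dTAG-13, without overlap (log2 change 0.32, edgeR adjusted p = 0.0111), while its exonic groups overlapped. The call was lost without dTAG-13 replicate 2 (edgeR adjusted p = 0.0724).

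**Figure D4:**
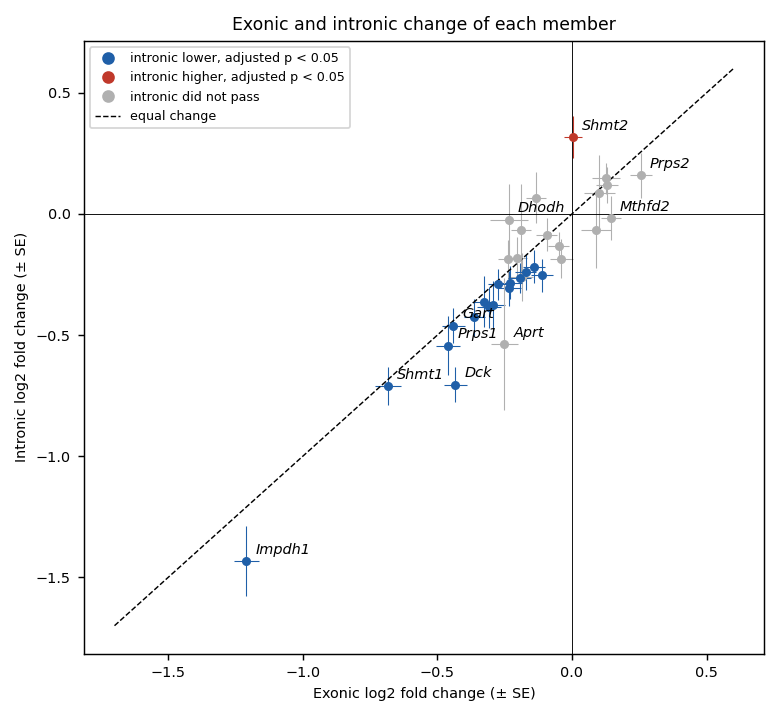
Exonic (x axis) against intronic (y axis) log2 fold change of 33 members with standard errors, leaving out Nme1 and Nme2, coloured by the intronic test; the dashed line marks equal change. Most points lie along the line, Impdh1 at -1.21 and -1.43, with Shmt2 above it and Dck below it.

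A test of the difference between exonic and intronic change called 0 of the same 33 members (edgeR quasi-likelihood test, 3 at an unadjusted p below 0.05), where 0.309% of 10026 genes were called (0.150% with the exonic change more negative and 0.160% with it more positive). Over all genes this test was the least precise, with a median SE of 0.12 in log2 units. Among members this varied, with an SE of 0.082 here and 0.086 in introns for Shmt2, and 0.076 and 0.073 for Dck. The exonic minus intronic difference was -0.32 for Shmt2 (edgeR adjusted p = 0.127) and 0.26 for Dck (edgeR adjusted p = 0.214). Without the filter on low counts Shmt2 passed (edgeR adjusted p = 0.0323).

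Other genes of the pathway were called in both directions. Of 62 tested among 85 further genes of folate, salvage and nucleotide metabolism, 13 fell (21.0%) and 10 rose (16.1%), beside 14.0% and 14.3% of all genes. Their median log2 change was -0.040, beside -0.0030 over all genes. In the list of folate and methionine genes 4 of 16 fell and 3 rose, in that of nucleoside salvage 5 of 12 fell and 1 rose, and among carriers of serine and glycine 1 of 6 fell and 3 rose. Interconversion and breakdown genes fell in 2 and rose in 3 of 15 cases, and 1 of 3 glycine cleavage genes fell. The nucleoside transporter Slc29a1 measured 265, 254, 256 and 255 CPM with DMSO and 143, 141, 138 and 129 CPM with dTAG-13 (log2 change -0.90, edgeR adjusted p = 2.5e-16). The reduced folate carrier Slc19a1 measured 75.8, 80.2, 77.8 and 79.4 CPM with DMSO and 44.4, 43.9, 48.6 and 48.2 CPM with dTAG-13 (log2 change -0.76, edgeR adjusted p = 1.8e-13). Both had fully separate groups. Slc29a2 (-0.65), another nucleoside transporter, adenosine deaminase Ada (-0.55), Fpgs (-0.46), which traps folate in cells, Gcsh (-0.36) of the glycine cleavage system and the dCTP pyrophosphatase Dctpp1 (-0.36) fell on the log2 scale (edgeR adjusted p at most 0.00024 each). Rises were measured for Samhd1, which degrades deoxynucleotides (0.90), the serine-carrying transporter Slc1a4 (0.48) and Adssl1 (1.28), a muscle-type paralog of Adss (edgeR adjusted p at most 0.0015 each). Adssl1 was scarce, at 0.708 CPM with DMSO and 1.70 CPM with dTAG-13, and met the minimum of 1 CPM for naming through the treated libraries alone, which favours a rise. Of the 10 nucleotide kinases tested 0 were called by edgeR or DESeq2 (2 at an unadjusted p below 0.05 by edgeR).

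Known regulators of the pathway were also measured. Myc fell from 212, 211, 215 and 208 CPM to 79.3, 76.1, 83.8 and 78.0 CPM (log2 change -1.42, edgeR adjusted p = 1.8e-20), and its paralog Mycn rose from 139, 137, 134 and 142 CPM to 241, 239, 239 and 226 CPM (log2 change 0.77, edgeR adjusted p = 2.5e-15). E2f1, E2f2 and E2f3, cell-cycle factors, changed by -0.28, -0.87 and -0.15 on the log2 scale (edgeR adjusted p = 9.5e-04, 4.0e-16 and 0.022), of which E2f3 missed the test when replicate 2 or 4 of DMSO or replicate 2 or 3 of dTAG-13 was left out (edgeR adjusted p between 0.0687 and 0.119). Max, the partner of MYC, and Atf4, a regulator of serine synthesis genes, had log2 differences of 0.028 and 0.073 and did not pass (edgeR adjusted p = 0.694 and 0.195). The part of these factors in the changes of the enzymes was not tested.

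The authors' deposited table listed 24 members lower and 3 higher in exonic counts, which held all 26 members called here, in the same direction, and Mthfd1l besides. In introns the authors' deposited table listed 16 lower and 1 higher, the same 17 members as here.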

How the data were processed

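For 8 libraries the authors deposited, gene by gene, raw read counts over exons and over whole genes, made from total RNA with a stranded ribosomal-RNA depletion kit per the labels' protocols. Builds mm10 and GRCm38.p4 and the tools STAR 2.7.4a, featureCounts, Subread 2.0.0, SAMtools 1.10 and DESeq2 appear in the submitters' processing notes. Which annotation release was used, and whether counting was by strand, are not given in the sources used here. The authors' deposited table of their DESeq2 comparison, with log2 fold changes and adjusted p-values for 25948 genes, served for gene names and for the agreement of calls.

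Whole-gene minus exonic counts gave intronic counts. Exonic and intronic counts were each tested with edgeR 4.0.16 in R 4.3.3 (TMM scaling, filterByExpr with a minimum count of 10 and total of 15, quasi-likelihood F test, Benjamini-Hochberg adjustment over all genes, threshold 0.05), 4 dTAG-13 against 4 DMSO libraries. A joint fit with library as block tested whether exonic and intronic changes differed. The procedure was also run on simulated counts with the same spread setting for every gene. That run held no shared exon reads or library effects, so it does not bear on them. CPM values use TMM-scaled library sizes. Levels per kilobase divide by the exon bases of each gene, all transcripts merged, in GENCODE vM21, which has another ID version for 8 of the 36 members. Adjusted p-values set the difference between groups against the spread between these libraries, and do not extend to other lines. Alternatives were DESeq2 1.42.0, RLE scaling, no filter, the replicate number as a block, leaving out Gm26917 and Gm42418, and leaving out each library. Members and gene lists were chosen with earlier results of these data known, and the 7 pairs after the values were seen. All members are named. The 3 members per role with the smallest exonic p, every member past the threshold in introns, the 10 other pathway genes with the largest passing change at 1 CPM or more in the higher group, and the listed regulators are given with values. Adsl, the remaining members of small groups and Prps2 and Paics in introns were added after their values were seen.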

Additional observations from a re-analysis of the deposited data

Results flagged for a closer look

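In 12 of 136 groups of 4 libraries examined, for members and read class, a library stood apart from the other 3 by Dixon's criterion, which chance does in about 1 of 20 groups. Of these, 5 were DMSO replicate 1, 5 dTAG-13 replicate 1, 1 DMSO replicate 3 and 1 DMSO replicate 4.

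In dTAG-13 replicate 1 all 5 values lay above the other treated libraries, toward the controls. Its exonic level was 332.2 CPM for Rrm2 (others 286.6 to 289.7), 203.6 CPM for Dck (others 172.9 to 178.0) and 66.0 CPM for Shmt1 (others 56.47 to 58.0). Its intronic level was 38.23 CPM for Umps (others 28.68 to 30.13) and 111.8 CPM for Dut (others 90.99 to 94.04).

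In DMSO replicate 1 the exonic level was 60.79 CPM for Prps1 (others 62.93 to 62.96) and 186.8 CPM for Gart (others 177.7 to 178.6). Its intronic level was lower than in the other controls for Ppat at 93.38 CPM (others 111.9 to 115.3), Tk1 at 50.83 CPM (others 58.62 to 58.78) and Shmt2 at 50.38 CPM (others 60.7 to 62.64). DMSO replicate 3 had 42.53 CPM of intronic Umps (others 40.39 to 40.62), and DMSO replicate 4 had 253.4 CPM of exonic Dck (others 243.2 to 244.7). For intronic Dut the groups overlapped. In the other cases they were separate.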

How the results depend on the processing

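Of the 26 members called in exonic counts, 23 were called under all 13 alternatives. The exceptions were Adsl, Ctps and Rrm1, as given above. Leaving out 1 library at a time left 21 to 24 members lower and 2 to 4 higher in exons, 13 to 17 lower and 0 to 1 higher in introns, 0 with a different exonic and intronic change, and 11 to 15 other pathway genes lower and 8 to 10 higher. Without the low-count filter 1 member, Shmt2, had a different exonic and intronic change. Shmt2 exonic log2 differences turned negative without DMSO replicate 1 (-0.00022), dTAG-13 replicate 2 (-0.0018) or dTAG-13 replicate 3 (-0.0096), and that of Max without DMSO replicate 1 (-0.0016), and reached at most 0.019 for Shmt2 and 0.056 for Max. DESeq2 called 24 members lower and 3 higher in exons.

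Same-numbered libraries showed little shared deviation (correlations from -0.0237 to 0.0453). This does not exclude that same-numbered libraries were handled together, and the main test left the numbers out. With the replicate block 23 members were lower and 3 higher in exons, 17 lower and 1 higher in introns. Over all genes the median standard error was largest for the difference between exonic and intronic change, which did not hold for each member. Nme2 and Aldh1l2 had too few exonic reads to resolve changes of the size seen elsewhere.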
